A study of Mus musculus with 12 samples.

Results

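The genes described here are 32 transcripts of the brain vasculature, read from the ventral hippocampus of mice: 24 of endothelial cells and the barrier they form, and 8 of the mural cells around them, pericytes and smooth muscle. They were chosen by symbol among the 54532 genes of the deposited count table, with earlier results of these data known. The shares of all genes given beside their counts are therefore description and not an independent test. Of the 32, 31 passed the filter on low counts, and the results below were read from a fit to the 16915 genes that passed it. The exception was Tagln, an actin-binding protein of smooth muscle, which had 0 to 5 counts in each library.

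The study had 12 libraries in 4 groups of 3, all from mice labelled as wild type. Control mice had no treatment, and a second group was exposed to CSDS. Another group received the virus AAV8-eGFP and was exposed to SSDS (SSDS-GFP). The last group carried a knockdown of ACOT12, an acetyl-CoA thioesterase, in the liver and was exposed to SSDS (SSDS-shACOT12). The labels give CSDS and SSDS as abbreviations only, and the columns of both virus groups carry the term TBG without spelling it out. The virus and SSDS came together, so in a comparison with control mice they cannot be told apart. Age, sex and strain were not given, nor whether replicates came from separate animals, and a p-value here speaks only of the spread among libraries, which may be technical.

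Brain endothelial cells are sealed to each other by tight junctions built from claudin-5, occludin and ZO proteins, and together with the pericytes that share their basement membrane they form the blood-brain barrier. Because little passes between the cells, glucose, lipids and thyroid hormone enter through carriers in the endothelial membrane, while ABC transporters pump drugs and other lipophilic molecules back into the blood. VEGF and angiopoietin receptors keep the endothelium alive and quiescent, Wnt signals from neural cells maintain its barrier character, and endothelial PDGF-B recruits pericytes. In bulk tissue, fewer vascular cells and less RNA per vascular cell cannot be told apart. Bulk counts also do not show which cells made a transcript, so the genes are grouped by role and not by measured source.

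Library totals ran from 14656714 to 17694570 counts. The libraries SSDS-GFP 3, SSDS-shACOT12 1 and SSDS-shACOT12 3 stood apart on the first principal component of all genes (31.3% of the variance), at 35.7, 37.4 and 63.1, with no other library above 5.82. Mitochondrial transcripts made up 3.23% and 4.31% of counts in SSDS-shACOT12 1 and 3 and 6.31% to 9.24% elsewhere. Log2 fold changes with these 3 libraries left out together are given below for several genes. SSDS-shACOT12 is then 1 library, assumed to vary like the other groups. Markers of other cells were found in every library. The summed CPM (counts scaled to a common library size) of 7 red blood cell genes was 332 to 387 in CSDS, 88.1 to 120 in control, 67.2 to 119 in SSDS-GFP and 92.8 to 206 in SSDS-shACOT12. The sum of 11 choroid plexus genes was 42.9 to 567 in control and 17.9 to 46.1 in the other groups, and that of 14 fibroblast genes 88.1 to 289 over all libraries. No gene of these lists, or of lists for ependymal cells and perivascular macrophages, was at 0 throughout. The part of these cells in the vascular results was not tested.

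The vascular genes spanned a wide range of levels per length. Cldn5, the claudin that seals the barrier, had the highest level at a mean of 43.8 CPM per kilobase over the 12 libraries. It was followed by the endothelial membrane protein Itm2a (33.2), the pericyte-made matrix protein Vtn (31.3), the surface antigen Ly6c1 (28.6), the pericyte regulator of G protein signalling Rgs5 (27.2) and the glucose carrier Slc2a1 (25.7). Between Slc2a1 and the next gene, the thyroid hormone carrier Slco1c1 (11.7 CPM per kilobase), the ranges over the libraries did not overlap. From Slco1c1 down to Anpep (0.579), an aminopeptidase of pericytes, each gene overlapped its neighbour in the order, so most of the order is not resolved by these libraries. Tagln stood below all others, at 0.0726 CPM per kilobase. Endothelial and pericyte transcripts were thus present in every library, while the smooth muscle label rested on Acta2, at 8.61 CPM per kilobase, and Myh11, at 1.74.

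**Figure D1:**
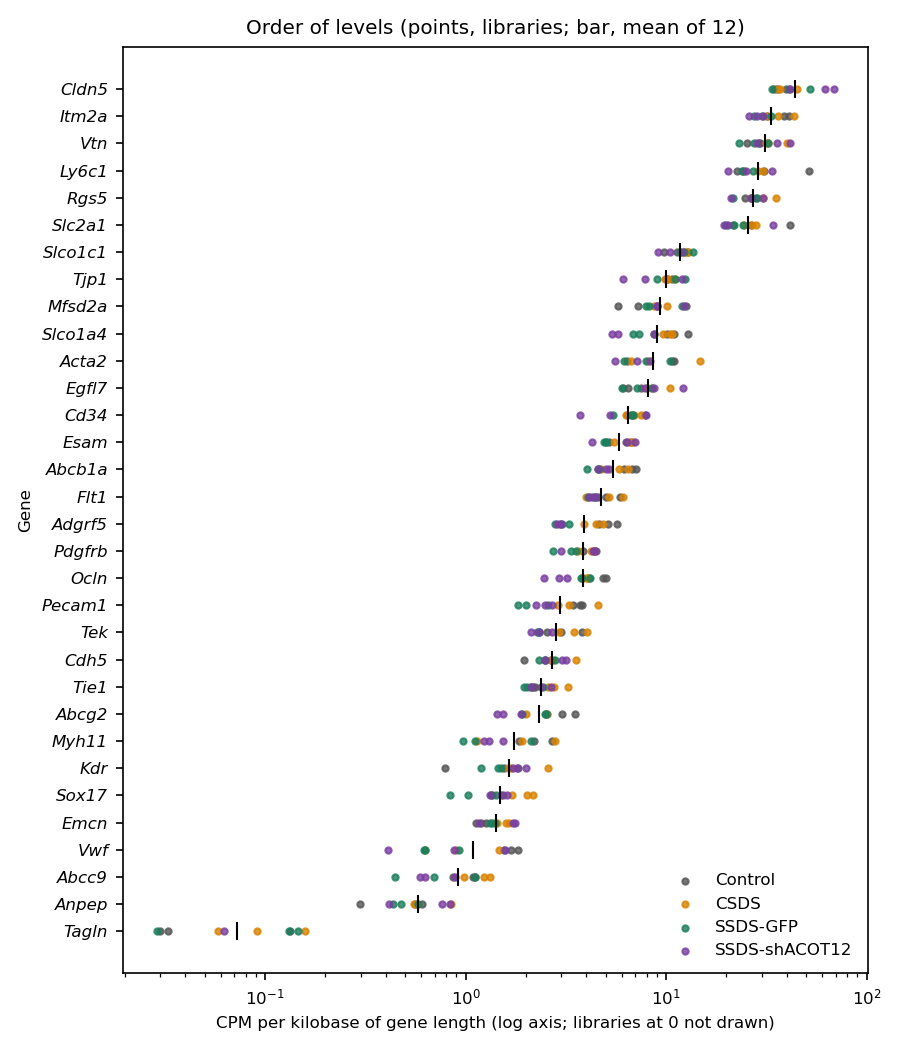
Level of each vascular gene in CPM per kilobase on a log axis, with a point for each library and a bar at the mean. Genes are ordered by their mean over the 12 libraries, and libraries at 0 are not drawn. Cldn5 leads at 43.8, the first 6 genes are separated from the rest after Slc2a1 at 25.7, and Tagln lies at 0.0726.

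Adgrf5 fell in both virus-plus-SSDS groups against control, and it was the only vascular gene whose change passed the test in any comparison. The test was the quasi-likelihood test of edgeR with Benjamini-Hochberg adjustment over all 16915 genes. In SSDS-GFP against control it called 1 of 31 vascular genes, as lower, where it called 0.0946% of all genes (0.0769% higher and 0.0177% lower). In SSDS-shACOT12 against control it called 1 of 31, as lower, where it called 0.0828% of all genes (0.0532% higher and 0.0296% lower). Both comparisons use the same 3 control libraries. Neither CSDS against control nor SSDS-shACOT12 against SSDS-GFP called a vascular gene, and in both 0% of all genes were called. At an unadjusted p under 0.05, CSDS had 3 vascular genes higher, where 2.86% of all genes were, and 1 lower, where 3.01% were (5.87% in either direction). SSDS-shACOT12 against SSDS-GFP had 2 higher, where 1.84% of all genes were, and 2 lower, where 2.68% were (4.53% in either direction). The labels do not pair the libraries of these 2 groups, but those with the same replicate number had correlated deviations from their group means. A fit to their 6 libraries with the number as a block also called 0 vascular genes. At an unadjusted p under 0.05 that fit had 4 vascular genes higher (Cldn5, Egfl7, Kdr and Vtn), where 2.02% of all genes were, and 3 lower (Abcg2, Ocln and Tjp1), where 6.90% were (8.92% in either direction). DESeq2 called none of the 31 in CSDS against control or in SSDS-shACOT12 against SSDS-GFP. In the test of any difference among the 4 groups, Adgrf5 was again the 1 vascular gene called, with 0.0887% of all genes (14.4% at an unadjusted p under 0.05).

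Below the threshold, most vascular genes were lower in the virus-plus-SSDS groups. In SSDS-GFP against control, 17 of 24 endothelial genes and 6 of 7 mural genes had a negative log2 fold change. The median was -0.28 for the endothelial and -0.19 for the mural genes, beside 0.01 over all genes tested. Leaving out 1 library at a time, the mural median ran from -0.39 without Control 2 to -0.06 without Control 1. The groups did not overlap for 10 vascular genes that were lower (Abcb1a, Abcg2, Adgrf5, Esam, Flt1, Pdgfrb, Pecam1, Slco1a4, Tek and Vwf), or 10 of 31, where 11.4% of all genes were lower without overlap. Emcn was higher without overlap, where 12.5% of all genes were. At an unadjusted p under 0.05, 0 vascular genes were higher, where 8.92% of all genes were, and 8 were lower, where 6.23% were (15.2% in either direction). Long genes were lower as a class in this comparison. Of the 10 lower without overlap, Adgrf5, Flt1 and Vwf lie in the longest 1 in 8 of genes, a class with median -0.14. Abcg2 and Slco1a4 lie in the next 1 in 8 (-0.08). Abcb1a, Pdgfrb and Pecam1 lie in the 1 in 8 after that (-0.04), and Esam and Tek are shorter. With each library's trend with gene length removed, 8 vascular genes were lower at an unadjusted p under 0.05, where 5.76% of all genes were. In SSDS-shACOT12 against the same control libraries, 16 of 24 endothelial and 5 of 7 mural genes had a negative log2 fold change, with medians of -0.27 and -0.12, beside 0.01 over all genes. There 9 vascular genes were lower without overlap, where 11.6% of all genes were, and Cldn5 and Egfl7 were higher without overlap, where 14.0% were. At an unadjusted p under 0.05, 2 were higher, where 13.6% of all genes were, and 9 were lower, where 10.7% were (24.2% in either direction).

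CSDS against control gave another picture, with 13 endothelial genes higher and 11 lower and a median log2 fold change of 0.01, and 5 mural genes higher and 2 lower with a median of 0.21. All genes tested had a median of 0.00. The groups did not overlap for 6 vascular genes that were higher (Cdh5, Egfl7, Emcn, Sox17, Tie1 and Vtn), where 10.2% of all genes were higher without overlap, and for 3 that were lower (Abcg2, Ocln and Vwf), where 10.1% were. The red blood cell genes were higher in the CSDS libraries as well, at the summed levels given above, and their part in these values was not tested. Long genes were lower as a class in CSDS too, with a median of -0.09 in the longest 1 in 8 of genes and 0.14 in the shortest. With each library's trend with gene length removed, 5 vascular genes were higher at an unadjusted p under 0.05, where 2.52% of all genes were. There 0 were lower, where 2.55% were. Between SSDS-shACOT12 and SSDS-GFP, which differ in the ACOT12 knockdown, 16 endothelial genes were higher and 8 lower, with a median of 0.13. Leaving out 1 library at a time, that median ran from 0.04 without SSDS-shACOT12 3 to 0.21 without SSDS-shACOT12 2, and it was 0.05 without the 3 libraries that stood apart. The 7 mural genes had a median of 0.02, and the median over all genes was 0.01. Kdr was higher without overlap, where 2.23% of all genes were, and Abcg2 and Ocln were lower without overlap, where 2.58% were.

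**Figure D2:**
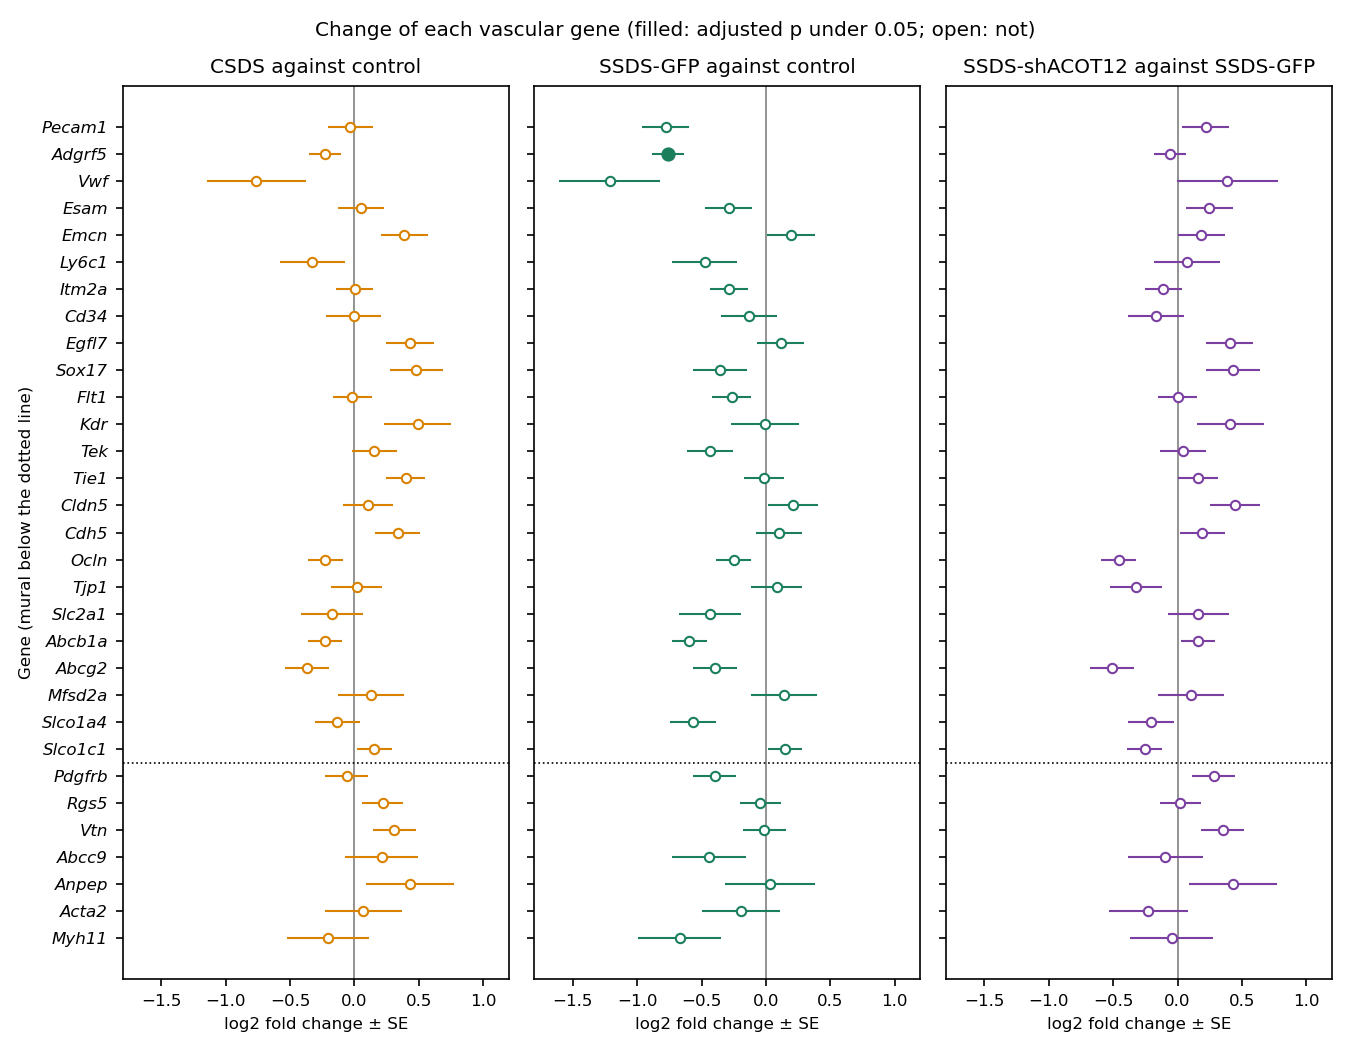
Log2 fold changes of the 31 tested vascular genes with their standard errors, grouped by role. The comparisons drawn are CSDS against control, SSDS-GFP against control and SSDS-shACOT12 against SSDS-GFP. Adgrf5 is the gene called, at -0.76 in SSDS-GFP against control.

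For 3 genes, Adgrf5, Pecam1 and Slco1a4, all 6 virus-plus-SSDS libraries lay below all 6 control and CSDS libraries, a pattern that 0.721% of all genes showed. No vascular gene showed the opposite pattern, which 1.25% of all genes did. The sequences upstream of Adgrf5 and Slco1a4 are shown because these genes share that pattern. They are the 250 bases before the RefSeq start site in GRCm38.p6, written 5′ to 3′ on the strand of the gene, at chr17:43360181-43360430 on the plus strand for Adgrf5 and chr6:141856221-141856470 on the minus strand for Slco1a4. Capitals mark the core AGGAAG of sites bound by ETS factors, a family with members that drive endothelial genes. In both windows it was read on the opposite strand, as CTTCCT, starting 57 bases before the start site of Adgrf5 and 104 before that of Slco1a4.
Adgrf5: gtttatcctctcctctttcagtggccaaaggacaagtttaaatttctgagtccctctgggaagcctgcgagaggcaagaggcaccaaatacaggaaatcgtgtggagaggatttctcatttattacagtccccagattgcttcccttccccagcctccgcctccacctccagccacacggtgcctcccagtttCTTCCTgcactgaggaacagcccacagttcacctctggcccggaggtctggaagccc
Slco1a4: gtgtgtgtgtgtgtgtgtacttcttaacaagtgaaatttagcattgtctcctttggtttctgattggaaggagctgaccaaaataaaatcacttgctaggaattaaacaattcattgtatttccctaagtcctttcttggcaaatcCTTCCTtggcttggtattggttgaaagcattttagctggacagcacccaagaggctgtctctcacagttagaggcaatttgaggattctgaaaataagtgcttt
The core was searched on both strands in windows of 300 bases, 250 before and 50 after the start. It was found in 9 of the 20 vascular genes that had a RefSeq start within 250 bases of the deposited 5′ end of the gene, or 45.0%, and in 35.4% of 32851 windows of all genes. A match of letters is not a bound site.

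Adgrf5 (ENSMUSG00000056492, chromosome 17, 43360451 to 43459557 in mm10) encodes an adhesion G protein-coupled receptor of endothelial cells. Its level was 51.0, 46.4 and 41.9 CPM in control libraries 1 to 3, and 40.3, 35 and 43.8 CPM in CSDS. It was 25.3, 29.5 and 27.4 CPM in SSDS-GFP, and 25.6, 26.9 and 26.5 CPM in SSDS-shACOT12. The 6 virus-plus-SSDS libraries were close together, and the highest of them lay under the lowest CSDS library. Against control, the log2 fold change in SSDS-GFP was -0.76 ± 0.12 (SE; edgeR quasi-likelihood, adjusted p = 0.044), so the level fell by 41.0%. In SSDS-shACOT12 it was -0.82 ± 0.12 (SE; edgeR quasi-likelihood, adjusted p = 0.0302), and the level fell by 43.3%. SSDS-shACOT12 differed from SSDS-GFP by -0.06 ± 0.12 (SE), and CSDS from control by -0.23 ± 0.12 (SE), neither past the threshold (adjusted p = 0.91 and 0.867).

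The fall of Adgrf5 kept its size when the 3 libraries that stood apart were left out, at -0.75 in SSDS-GFP (edgeR adjusted p = 0.0215) and -0.77 in SSDS-shACOT12 (0.0244). The calls were not firm: leaving out 1 library at a time ended the first in 9 of 12 cases, those of every control, CSDS and SSDS-GFP library, with edgeR adjusted p from 0.0239 to 0.320. It ended the second in 7 of 12, those of each control library, CSDS 1 and 3, SSDS-GFP 1 and SSDS-shACOT12 3, with edgeR adjusted p from 0.0054 to 0.235. Adgrf5, with 9010 bases, lies among the longest 1 in 8 of genes, and long genes were lower as a class. The median log2 fold change of the longest eighth of genes was -0.14 in SSDS-GFP and -0.18 in SSDS-shACOT12 against control, while that of the shortest was 0.20 and 0.24. With each library's trend with gene length removed, Adgrf5 was at -0.64 and -0.65, with edgeR adjusted p = 0.0752 and 0.0608.

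**Figure D3:**
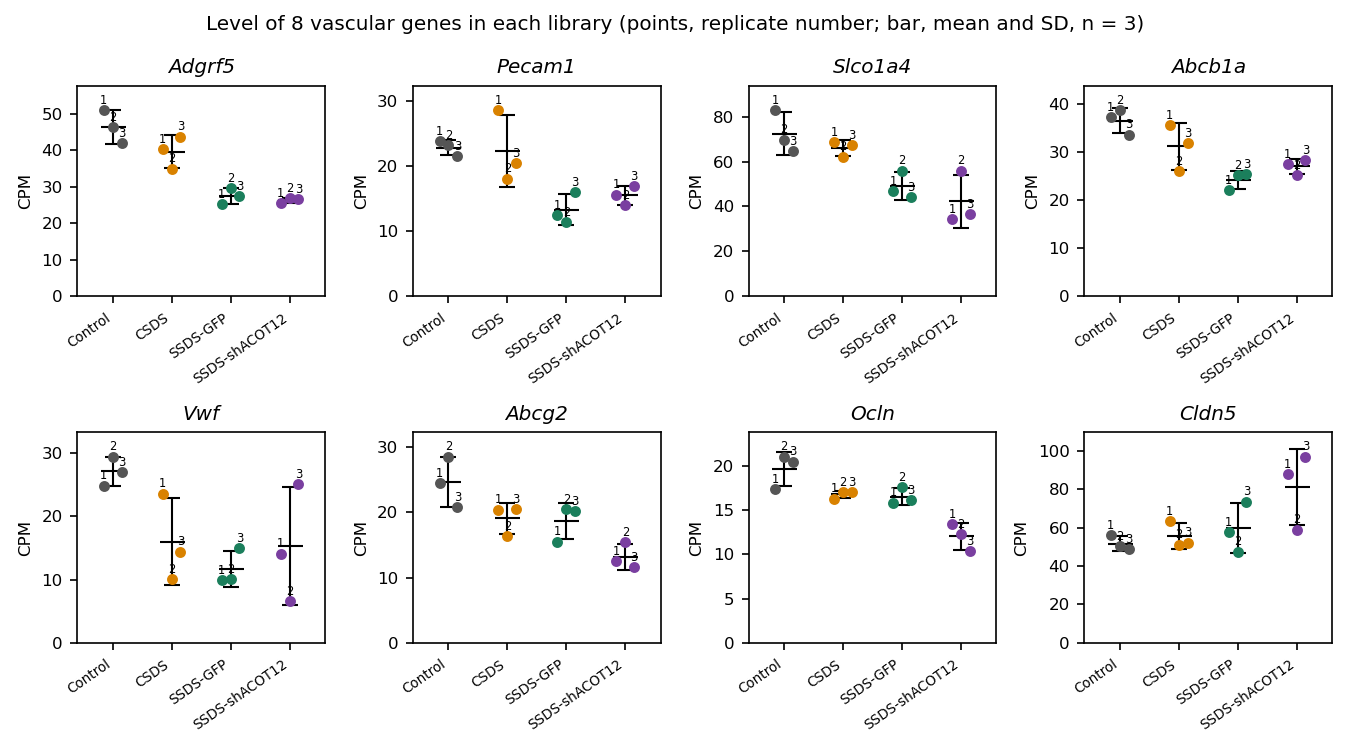
Level in CPM by library for selected vascular genes, with points for the libraries (numbered by replicate) and the mean ± SD of each group of 3. Adgrf5 runs from 25.3 to 29.5 in the 6 virus-plus-SSDS libraries and from 35 to 51.0 in the others.

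Among the other surface and identity genes, Pecam1 (ENSMUSG00000020717), a junctional adhesion molecule used as the classical endothelial marker, had the next clearest pattern. It was measured at 23.8, 23.2 and 21.5 CPM in control and 28.6, 18.1 and 20.4 in CSDS. In the virus groups it was at 12.5, 11.4 and 16.0 CPM (SSDS-GFP) and 15.6, 14.0 and 16.8 CPM (SSDS-shACOT12). The highest virus-plus-SSDS library, at 16.8 CPM, lay just under the lowest CSDS library. Against control the log2 fold change was -0.78 ± 0.18 (SE) in SSDS-GFP and -0.56 ± 0.18 (SE) in SSDS-shACOT12, and neither passed the threshold (edgeR adjusted p = 0.116 and 0.097). Without the 3 libraries that stood apart, the SSDS-GFP value was -0.93 and passed it (edgeR adjusted p = 0.0298).

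Vwf, the clotting factor stored by endothelial cells, had the largest standard errors of the 31 vascular genes tested. It was at 24.9, 29.5 and 27.1 CPM in control and 23.6, 10.0 and 14.4 in CSDS. It was at 9.96, 10.1 and 14.9 CPM in SSDS-GFP, with 14.1, 6.56 and 25.1 in SSDS-shACOT12. All CSDS and SSDS-GFP libraries lay below the control libraries, while SSDS-shACOT12 3 fell within them. The log2 fold change was -1.21 ± 0.39 (SE) in SSDS-GFP against control (edgeR adjusted p = 0.176). It was -0.76 ± 0.39 in CSDS and -0.83 ± 0.39 in SSDS-shACOT12 against the same control libraries (edgeR adjusted p = 0.867 and 0.208). Without the 3 libraries that stood apart, the values passed the threshold at -1.43 in SSDS-GFP and -2.03 in SSDS-shACOT12 (edgeR adjusted p = 0.0239 and 0.00872), the latter resting on the 1 library at 6.56 CPM.

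Egfl7, a secreted protein that shapes vessel tubes, gave higher values in CSDS and SSDS-shACOT12. Its CPM was 23.1, 21.7 and 26.9 in control and 37.6, 28.7 and 30.5 in CSDS. The virus groups measured 25.6, 21.6 and 30.3 CPM (SSDS-GFP) and 31.2, 28.1 and 43.4 CPM (SSDS-shACOT12). All CSDS and SSDS-shACOT12 libraries lay above the control libraries, and SSDS-GFP overlapped them. The log2 fold change was 0.43 ± 0.18 (SE) in CSDS against control (edgeR adjusted p = 0.849) and 0.40 ± 0.18 (SE) in SSDS-shACOT12 against SSDS-GFP (edgeR adjusted p = 0.803). The latter was 0.26 without the 3 libraries that stood apart (edgeR adjusted p = 0.858). Exons of Egfl7 share bases with Agpat2, Gm20532 and 2 microRNA genes, and how such reads were counted is not stated.

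Sox17, a transcription factor of arterial endothelium, had lower counts. It stood at 7.29, 6.36 and 6.48 CPM in control and 10.3, 8.13 and 9.66 in CSDS. It was at 3.97, 4.92 and 6.75 CPM in SSDS-GFP, with 7.67, 6.30 and 7.19 in SSDS-shACOT12. The CSDS libraries were the highest 3 of the 12. Their log2 fold change against control was 0.48 ± 0.21 (SE; edgeR adjusted p = 0.849). An opposite-strand gene, Gm37587, covers 804 exonic bases of Sox17, so their reads cannot be separated without strand.

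Itm2a, the most abundant of the surface and identity genes per length, was at 67.2, 55.4 and 71.3 CPM in control and 75.8, 55.4 and 63.0 in CSDS. It was at 58.2, 52.4 and 48.1 CPM in SSDS-GFP, with 49.4, 52.8 and 45.0 in SSDS-shACOT12. The SSDS-shACOT12 libraries lay below the control libraries, with a log2 fold change of -0.40 ± 0.15 (SE; edgeR adjusted p = 0.127). Of the remaining 4, the junctional protein Esam ran from 12.2 to 20.1 CPM over all libraries, the sialomucin Emcn from 6.10 to 9.54, the sialomucin Cd34 from 27.2 to 58.1, and Ly6c1 from 34.2 to 86.4. None of them passed the threshold. The high end of Ly6c1 was Control 2, and reads of this gene could be split with its close copy Ly6c2.

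The 4 vascular growth factor receptors had the highest median log2 fold change of the 6 roles in CSDS against control, at 0.28, and none of them passed the threshold in any comparison. Their median was -0.14 in SSDS-GFP and -0.06 in SSDS-shACOT12 against the same control libraries. Flt1, the VEGF receptor that acts largely as a decoy, was the most abundant of them per length, with 79.8, 61.7 and 67.4 CPM in control and 82.2, 53.9 and 70.4 in CSDS. It had 55.1, 59.5 and 59.3 CPM in SSDS-GFP, with 55.9, 60.4 and 57.7 in SSDS-shACOT12. Both virus groups lay below control by a log2 fold change of -0.26 ± 0.15 (SE; edgeR adjusted p = 0.426 in SSDS-GFP and 0.293 in SSDS-shACOT12), and CSDS 2 was the lowest library of all.

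Tie1, an orphan receptor partner of Tek, had the smallest p of the vascular genes in CSDS. It was at 10.6, 10.4 and 10.9 CPM in control and 15.9, 12.6 and 13.6 in CSDS. With virus and SSDS it was at 9.96, 9.58 and 12.0 CPM (SSDS-GFP) and 11.6, 10.4 and 13.1 CPM (SSDS-shACOT12). The CSDS libraries lay above the tightly grouped control libraries, by a log2 fold change of 0.40 ± 0.15 (SE; edgeR adjusted p = 0.849). The SSDS-GFP and SSDS-shACOT12 libraries were around the control level. Tek, the angiopoietin receptor, was at 18, 12.0 and 14.1 CPM in control and at 10.8 to 11.0 CPM in the 3 SSDS-GFP libraries (edgeR adjusted p = 0.276). Kdr, the main signalling receptor for VEGF, was at 10.8, 13.6 and 13.2 CPM in SSDS-GFP and at 15.5, 18 and 16.4 in SSDS-shACOT12, without overlap (log2 fold change 0.41 ± 0.26, SE; edgeR adjusted p = 0.803). Its control libraries ran from 7.14 to 16.5 CPM and spanned most of that range.

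The 4 junction genes did not share a direction, and none passed the threshold in the 4 comparisons. Cldn5 (ENSMUSG00000041378) was at 55.9, 50.4 and 48.7 CPM in control and 63.3, 51.1 and 52.2 in CSDS. It was at 57.8, 47.5 and 73.5 CPM in SSDS-GFP, with 87.8, 59.0 and 97.0 in SSDS-shACOT12. The 3 libraries that stood apart held the 3 highest values. The log2 fold change was 0.45 ± 0.19 (SE) in SSDS-shACOT12 against SSDS-GFP (edgeR adjusted p = 0.803) and 0.65 ± 0.19 (SE) against control (edgeR adjusted p = 0.0837). Without SSDS-shACOT12 2, the former was 0.62 and passed the threshold (edgeR adjusted p = 0.0472). Without the 3 libraries that stood apart, it was 0.17 (edgeR adjusted p = 0.904), and the value against control was 0.21 (edgeR adjusted p = 0.53). Tjp1, the scaffold protein ZO-1, had its 3 lowest values in the same libraries, at 70.7 CPM for SSDS-GFP 3, 61.6 for SSDS-shACOT12 1 and 47.8 for SSDS-shACOT12 3, and ran from 76.8 to 97.1 in the rest. The part of what sets these libraries apart was not tested.

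Ocln (ENSMUSG00000021638), which encodes the tight junction protein occludin, was at 17.4, 21.1 and 20.5 CPM in control and 16.3, 17.1 and 17.1 in CSDS. It was at 15.9, 17.7 and 16.1 CPM in SSDS-GFP, with 13.5, 12.3 and 10.4 in SSDS-shACOT12. The SSDS-shACOT12 libraries were the lowest 3 of all 12 libraries. SSDS-shACOT12 was below SSDS-GFP by a log2 fold change of -0.46 ± 0.14 (SE; edgeR adjusted p = 0.803), and below control by -0.71 ± 0.14 (SE; edgeR adjusted p = 0.0531). Cdh5, the VE-cadherin of adherens junctions, was at 10.4, 8.24 and 11.2 CPM in control and 15, 11.3 and 11.5 in CSDS, which did not overlap (log2 fold change 0.34 ± 0.18, SE; edgeR adjusted p = 0.867).

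The upstream sequences of Cldn5 and Ocln are shown because these junction genes gave opposite values in SSDS-shACOT12. They are again the 250 bases before the RefSeq start in GRCm38.p6, at chr16:18776597-18776846 on the plus strand and chr13:100552719-100552968 on the minus strand. Capitals mark a GC box, the letters GGGCGG bound by Sp factors, read here on the opposite strand as CCGCCC, at 45 bases before the start of Cldn5 and 112 before that of Ocln.
Cldn5: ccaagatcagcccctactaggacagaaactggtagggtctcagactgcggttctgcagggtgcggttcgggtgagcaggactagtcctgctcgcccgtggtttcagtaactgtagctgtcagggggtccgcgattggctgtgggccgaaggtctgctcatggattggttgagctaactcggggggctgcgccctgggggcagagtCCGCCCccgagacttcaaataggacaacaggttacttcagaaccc
Ocln: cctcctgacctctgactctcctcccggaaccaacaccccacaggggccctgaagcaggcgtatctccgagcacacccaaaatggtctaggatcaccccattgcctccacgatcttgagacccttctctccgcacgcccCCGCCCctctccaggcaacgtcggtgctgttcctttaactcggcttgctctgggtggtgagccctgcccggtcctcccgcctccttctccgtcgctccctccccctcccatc
The GC box was found in 7 of the 20 vascular windows of 300 bases, a share of 35%, and in 35.7% of all windows, searched on both strands. Neither window held the core AGGAAG.

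Among the transporters, the efflux pumps Abcg2 and Abcb1a and the organic anion carrier Slco1a4 were lower in every virus-plus-SSDS library than in any control library. The glucose, lipid and thyroid hormone carriers overlapped control. The median log2 fold change of the 6 was -0.42 in SSDS-GFP and -0.35 in SSDS-shACOT12 against control, and -0.15 in CSDS. None of the 6 passed the threshold in any comparison. Abcg2 (ENSMUSG00000029802), the breast cancer resistance pump, was at 24.5, 28.6 and 20.8 CPM in control and 20.4, 16.3 and 20.5 in CSDS. In the virus groups it was at 15.5, 20.5 and 20.2 CPM (SSDS-GFP) and 12.5, 15.4 and 11.6 CPM (SSDS-shACOT12). Its libraries in all 3 treated groups lay below those of control, and SSDS-shACOT12 lay below SSDS-GFP. The log2 fold change was -0.90 ± 0.17 (SE) in SSDS-shACOT12 against control (edgeR adjusted p = 0.0531) and -0.51 ± 0.17 (SE) against SSDS-GFP (edgeR adjusted p = 0.803). The latter was -0.22 without the 3 libraries that stood apart (edgeR adjusted p = 0.907).

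Abcb1a (ENSMUSG00000040584), which encodes a P-glycoprotein, was at 37.2, 38.7 and 33.6 CPM in control and 35.6, 26.0 and 31.8 in CSDS. It was at 22.0, 25.1 and 25.3 CPM in SSDS-GFP, with 27.5, 25.2 and 28.3 in SSDS-shACOT12. Both virus groups lay wholly below control, by -0.59 ± 0.13 and -0.43 ± 0.13 (SE) on the log2 scale (edgeR adjusted p = 0.116 and 0.0906). Reads of its close copy Abcb1b, and of Gm42686 on the opposite strand, could be counted with it.

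Slco1a4 (ENSMUSG00000030237), a carrier of bile acids, steroid conjugates and other organic anions, was at 82.9, 69.8 and 64.6 CPM in control and 68.8, 62.2 and 67.2 in CSDS. It was at 46.9, 55.9 and 44.1 CPM in SSDS-GFP, with 34.5, 56.0 and 36.7 in SSDS-shACOT12. The highest virus-plus-SSDS library, at 56.0 CPM, lay below the lowest of the others, at 62.2. The log2 fold change against control was -0.57 ± 0.18 (SE) in SSDS-GFP and -0.77 ± 0.18 (SE) in SSDS-shACOT12 (edgeR adjusted p = 0.174 and 0.055). The 34.5 and 36.7 CPM of SSDS-shACOT12 were in libraries that stood apart, and without those 3 libraries its value was -0.36 (edgeR adjusted p = 0.251).

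The nutrient carriers followed single libraries more than groups. Slc2a1, the glucose transporter GLUT1 and the most abundant transporter per length, was at 92.6, 145 and 75.5 CPM in control and 93.5, 85.9 and 98.5 in CSDS. It was at 69.7, 76.9 and 85.0 CPM in SSDS-GFP, with 68.3, 71.8 and 119 in SSDS-shACOT12. Control 2 and SSDS-shACOT12 3 were the high libraries, and the largest log2 fold change, in SSDS-GFP against control, was -0.44 ± 0.24 (SE; edgeR adjusted p = 0.407). Mfsd2a, the carrier of omega-3 lysolipids, was also highest in Control 2 (28.2 CPM) and SSDS-shACOT12 3 (27.7), as was Ly6c1 (86.4 and 56.8 CPM). Over the 12 libraries Pearson r of log2 CPM was 0.93 for Ly6c1 with Slc2a1 and 0.64 for Slc2a1 with Mfsd2a. As deviations from the group means, r was 0.93 and 0.91. These pairs were picked after their values were seen and share libraries and scaling. Slco1c1 ran from 47.3 to 70.6 CPM with no group apart.

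Of the pericyte genes, none passed the threshold. Vtn was at 59.4, 51.4 and 58.8 CPM in control and 81.2, 65.2 and 63.7 in CSDS. It was at 56.0, 46.7 and 65.3 CPM in SSDS-GFP, with 72.1, 57.6 and 84.6 in SSDS-shACOT12. The CSDS libraries lay above control, by a log2 fold change of 0.31 ± 0.17 (SE; edgeR adjusted p = 0.867), and SSDS-shACOT12 was above SSDS-GFP by 0.35 ± 0.17 (SE; edgeR adjusted p = 0.803) with overlap. Within each pair of the same replicate number, SSDS-shACOT12 was the higher, as it was for Cldn5 and Egfl7. The pairing is an assumption, and the share of all genes with this pattern was not counted. Without the 3 libraries that stood apart, the difference of Vtn was 0.17. Pdgfrb, the receptor by which pericytes sense PDGF-B, was at 24.6, 21.1 and 24 CPM in control and 18.4, 14.9 and 19.6 in SSDS-GFP, which did not overlap (log2 fold change -0.40 ± 0.17, SE; edgeR adjusted p = 0.288). Its SSDS-shACOT12 libraries ran from 16.3 to 24.3 CPM and overlapped both.

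Rgs5 ran from 95.9 to 160 CPM, highest in CSDS 1. Abcc9, a subunit of the potassium channel of pericytes, was at 9.28, 9.09 and 7.26 CPM in control and 5.85, 9.32 and 3.72 in SSDS-GFP, with 5.26, 7.45 and 4.96 in SSDS-shACOT12. Its lowest 3 libraries were the 3 that stood apart. Anpep ran from 1.23 to 3.51 CPM.

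The contractile genes varied by library. Acta2, smooth muscle actin, was at 19.6, 11.4 and 19.1 CPM in control and 26.2, 12.0 and 14.5 in CSDS. The virus groups measured 14.2, 11.0 and 18.6 CPM (SSDS-GFP) and 12.7, 9.87 and 14.9 CPM (SSDS-shACOT12). Its groups overlapped throughout, with log2 fold changes from -0.42 ± 0.30 (SE) in SSDS-shACOT12 against control (edgeR adjusted p = 0.405) to 0.07 ± 0.30 in CSDS. The former was -0.75 without the 3 libraries that stood apart (edgeR adjusted p = 0.328). Myh11, the smooth muscle myosin heavy chain, was at 20.5, 14.0 and 16.6 CPM in control and 21.2, 8.65 and 14.5 in CSDS. With virus and SSDS it was at 8.45, 7.42 and 16.1 CPM (SSDS-GFP) and 9.34, 10.0 and 11.7 CPM (SSDS-shACOT12). Acta2 and Myh11 tracked each other, with Pearson r of 0.82 over 12 libraries and 0.85 as deviations from group means. This pair too was picked after its values were seen. Tagln had 4, 1 and 1 counts in control and 5, 2 and 3 in CSDS. The virus groups had 4, 4 and 1 (SSDS-GFP) and 0, 0 and 2 (SSDS-shACOT12), too few to compare.

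Endothelial and mural genes were then set against each other by library. Each score is the mean over its tested genes of log2 CPM less that gene's mean over the 12 libraries. The endothelial score was 0.17, 0.12 and 0.03 in control and 0.29, -0.02 and 0.15 in CSDS. In the virus groups it was -0.22, -0.16 and -0.05 (SSDS-GFP) and -0.09, -0.19 and -0.02 (SSDS-shACOT12). The mural score was 0.24, -0.16 and 0.14 in control and 0.52, -0.06 and 0.13 in CSDS. In the virus groups it was -0.22, -0.28 and -0.08 (SSDS-GFP) and -0.09, -0.22 and 0.08 (SSDS-shACOT12). The scores lay on the same side of 0 in 10 of 12 libraries, the exceptions being Control 2 and SSDS-shACOT12 3. All 6 virus-plus-SSDS libraries had an endothelial score under 0, and CSDS 1 led both scores. The difference of the scores, endothelial less mural, ran from -0.23 in CSDS 1 to 0.28 in Control 2.

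**Figure D4:**
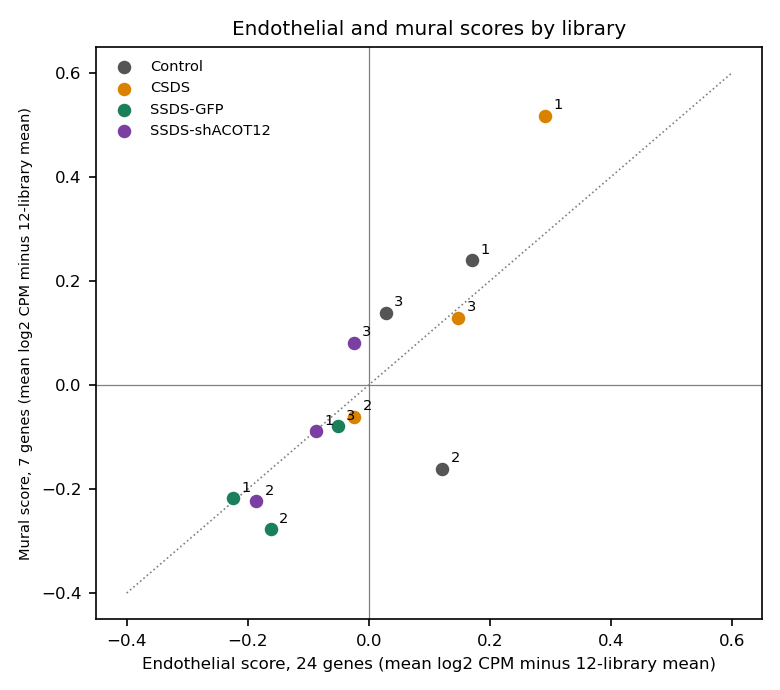
Endothelial score against mural score for each of the 12 libraries, both as mean log2 CPM less the gene's mean over all libraries, with the groups in colour. CSDS 1 is at 0.29 and 0.52 and SSDS-GFP 1 at -0.22 and -0.22. Control 2, at 0.12 and -0.16, has the largest difference of endothelial less mural score.

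Pair by pair, endothelial genes tracked mural genes about as well as they tracked each other. Over the 12 libraries the median Pearson r was 0.25 among 276 endothelial pairs, 0.27 among 21 mural pairs and 0.29 among 168 mixed pairs. As deviations from group means it was 0.21, 0.38 and 0.20. All pairs share the libraries and their scaling, and weak correlations of this size are given as description only. Some pairs departed widely from the median: Cldn5 with Tjp1 had r of -0.86 and Adgrf5 with Abcb1a r of 0.88. Adgrf5 with Pecam1 had r of 0.82 over all libraries but 0.22 as deviations from group means, so their likeness lay between groups. These pairs were chosen after their values were seen.

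**Figure D5:**
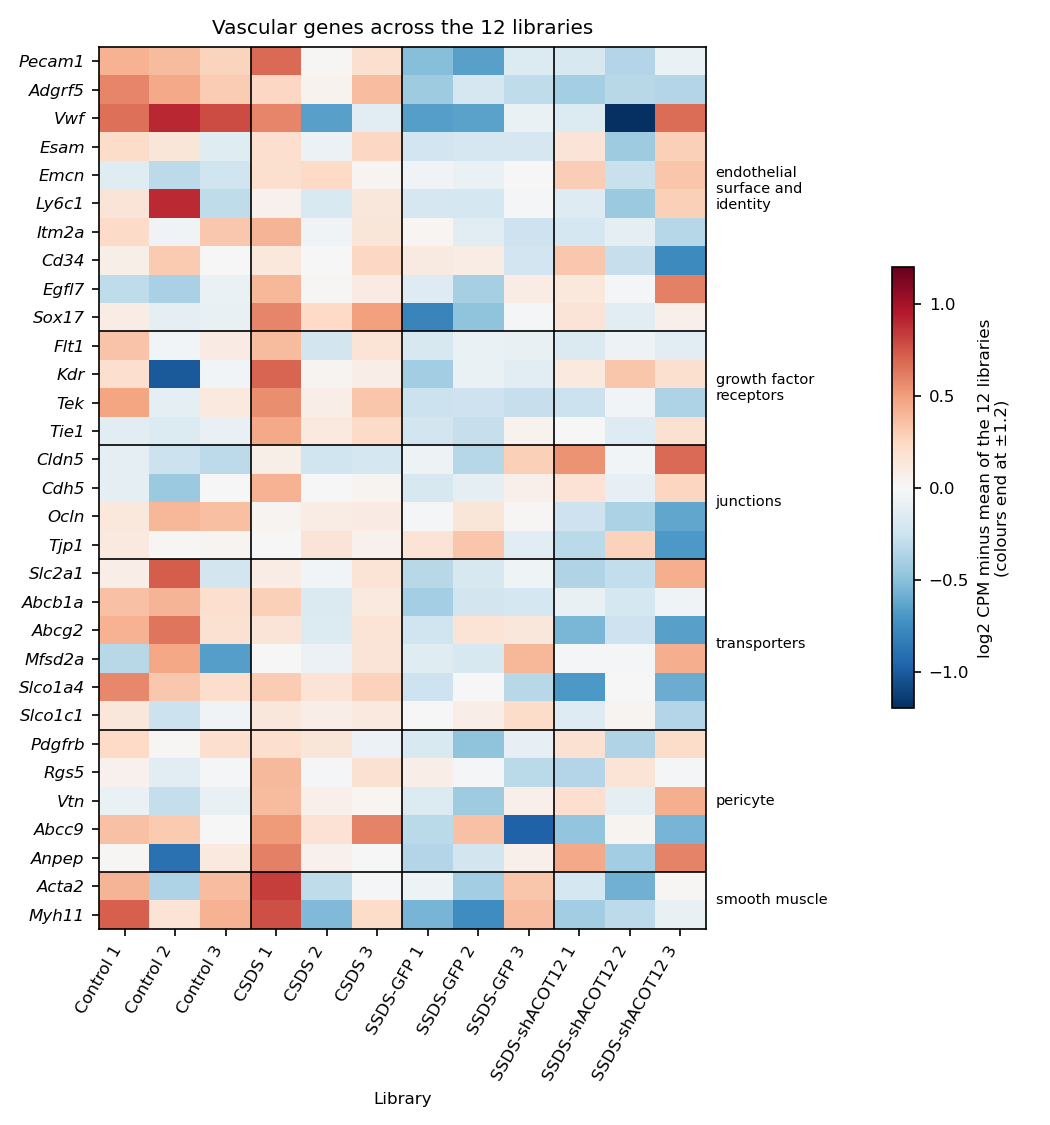
Log2 CPM of the 31 tested vascular genes in each of the 12 libraries, less the gene's mean over all libraries, with genes in order of role. Adgrf5 and Pecam1 are below their mean in all 6 virus-plus-SSDS libraries, and Ly6c1, Slc2a1 and Mfsd2a share high values in Control 2 and SSDS-shACOT12 3.

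The wider pathways of the vessel wall held no gene that passed the threshold in any of the 4 comparisons, over 8 lists outside the 32 genes. Among VEGF and angiopoietin ligands and co-receptors, 12 of 15 tested genes were higher in CSDS against control, with a median log2 fold change of 0.28. Vegfa, the main growth factor for endothelium, was at 40.6, 34.9 and 47.0 CPM in control and 64.3, 50.3 and 69.0 in CSDS, without overlap (log2 fold change 0.58 ± 0.17, SE; edgeR adjusted p = 0.849). In SSDS-shACOT12 against SSDS-GFP, 13 of the 15 were higher. Eng, a co-receptor for TGF-beta family ligands, was at 20.1, 16.9 and 22.8 CPM in SSDS-GFP, with 29.8, 20.3 and 34.6 in SSDS-shACOT12 (log2 fold change 0.50 ± 0.19, SE; edgeR adjusted p = 0.803).

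The ligand that recruits pericytes, Pdgfb, was at 25.5, 23.3 and 30.7 CPM in SSDS-GFP, with 40.8, 28.2 and 40.1 in SSDS-shACOT12, with overlap (log2 fold change 0.46 ± 0.16, SE; edgeR adjusted p = 0.803). In the list of PDGF-B and Notch signals, 11 of 16 genes were higher in CSDS and 8 of 16 in SSDS-shACOT12 against SSDS-GFP. Its lead in CSDS was Hes1, a Notch target, at 9.22, 7.79 and 8.03 CPM in control and 12.1, 16.8 and 11.3 in CSDS (edgeR adjusted p = 0.849). The Wnt and Norrin list was evenly split, with 9 of 16 genes higher in both comparisons. The Wnt co-receptor Lrp5 had a log2 fold change of -0.51 ± 0.21 (SE) in CSDS, and Lrp6 one of -0.37 ± 0.17 (SE) in SSDS-shACOT12 against SSDS-GFP.

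Other carriers of the barrier were mostly lower in SSDS-GFP against control, 13 of 16 with a median log2 fold change of -0.24. At an unadjusted p under 0.05, 6 of the 16 were lower, where 6.23% of all genes were. In SSDS-shACOT12 against control, 10 of the 16 were lower, with a median of -0.17. At that level 4 were lower there, where 10.7% of all genes were, and 1 was higher, where 13.6% were. Some lists went the other way or were split in SSDS-GFP against control. VEGF and angiopoietin ligands and co-receptors were higher for 10 of 15 (median 0.13), and endothelial activation and leakage genes for 8 of 11 (median 0.24). Other endothelial genes were higher for 10 of 18 (median 0.02) and other junction genes for 7 of 14 (median 0.01). The Wnt and Norrin list and the PDGF-B and Notch list were each lower for 9 of 16. Slc38a5, a glutamine carrier, was at 6.37, 4.15 and 5.95 CPM in control and 3.19, 2.61 and 3.92 in CSDS. In the virus groups it was at 2.82, 2.43 and 1.54 CPM (SSDS-GFP) and 5.69, 2.04 and 4.65 CPM (SSDS-shACOT12). It was higher in SSDS-shACOT12 1 and 3 than in any SSDS-GFP library, while SSDS-shACOT12 2 was within them (log2 fold change 0.87 ± 0.36, SE; edgeR adjusted p = 0.803). Of other junction genes, 9 of 14 were higher in CSDS, led by the tight junction adaptor Cgn with a log2 fold change of 0.80 ± 0.32 (SE). In SSDS-shACOT12 against SSDS-GFP, 8 of 14 were higher, and the catenin Ctnnd1 had the smallest p at -0.29 ± 0.18 (SE).

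Other endothelial genes were higher for 14 of 18 in CSDS against control, with a median log2 fold change of 0.15, and for 12 of 18 in SSDS-shACOT12 against SSDS-GFP. Slc9a3r2, a scaffold protein, had the smallest p of the former, with a log2 fold change of 0.36 ± 0.16 (SE), and Erg, an ETS factor of endothelium, that of the latter, with 0.55 ± 0.24 (SE). Erg was at 2.82, 4.53 and 3.77 CPM in SSDS-GFP, with 5.63, 4.20 and 6.44 in SSDS-shACOT12. The activation and leakage list had 8 of 11 genes lower in SSDS-shACOT12 against SSDS-GFP. Vcam1, the leukocyte adhesion molecule, was at 23.5, 31.2 and 29.8 CPM in SSDS-GFP, with 16.1, 24.6 and 19.3 in SSDS-shACOT12 (log2 fold change -0.49 ± 0.16, SE; edgeR adjusted p = 0.803). Lcn2, an acute phase protein on the same list, was set by single libraries, at 9.67 CPM in Control 2, 14.0 in SSDS-GFP 3 and 6.26 in SSDS-shACOT12 3 and at 3.68 or less elsewhere.

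Against control, 13 of the 17 remaining pericyte and smooth muscle genes were lower in SSDS-GFP and 10 of 17 in SSDS-shACOT12. At an unadjusted p under 0.05, 0 of the 17 were lower in SSDS-GFP, where 6.23% of all genes were. In SSDS-shACOT12, 2 were lower at that level, where 10.7% of all genes were. Foxs1, a transcription factor of mural cells, was at 1.33, 0.649 and 0.833 CPM in control and 0.564, 0.174 and 0.181 in CSDS (log2 fold change -1.60 ± 0.52, SE; edgeR adjusted p = 0.849). Pln, the phospholamban of muscle, was at 0.578, 0.984 and 0.457 CPM in SSDS-GFP, with 0.124, 0.255 and 0.372 in SSDS-shACOT12 (edgeR adjusted p = 0.803). Both genes were near the lower limit of what these libraries measure.

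Most of the pathway genes named in SSDS-shACOT12 against SSDS-GFP differed less without the 3 libraries that stood apart. There, the log2 fold change of Eng was 0.14, that of Pdgfb 0.22, that of Erg 0.20 and that of Vcam1 -0.14. Lrp6 was then at -0.10 and Ctnnd1 at -0.03. Slc38a5 was at -0.35 in place of 0.87, so its sign changed. Pln was at -1.59. None of these values passed the threshold (edgeR adjusted p from 0.747 for Pln to 0.997 for Ctnnd1).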

How the data were processed

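RNA sequencing was deposited for 12 ventral hippocampus libraries, prepared with the NEBNext Ultra RNA kit from 1 µg of RNA, per the labels' protocols. Per the submitters' processing notes, HISAT2 2.0.5, featureCounts 1.5.0-p3 and DESeq2 were used with the build mm10. The annotation release and strand setting are not given in the sources used here. The authors deposited raw counts per gene, used for every test, and FPKM values, used for 2 alternatives. Gene length in bases, other than an expression unit, is given per the file headers.

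The counts were filtered with filterByExpr (count of at least 10, total of at least 15; edgeR 4.0.16, R 4.3.3), scaled by TMM and fitted with group as the only factor over all 12 libraries. Each contrast was tested 2-sided by quasi-likelihood with Benjamini-Hochberg adjustment over 16915 genes, at 0.05. Errors are standard errors of the model. Tested on simulated data for SSDS-GFP against control, the fit recovered 10.4% of 1.5-fold and 59.7% of 2-fold changes, with 5 false calls among 16915 genes. The simulated libraries were independent, with none that stood apart and no trend with gene length. These rates may therefore not hold for the real libraries.

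The 32 genes and the pathway and marker lists were chosen with earlier results of these data known. Genes given in full were those called, the 3 with the smallest p in each of 3 contrasts (CSDS and SSDS-GFP against control, and SSDS-shACOT12 against SSDS-GFP), the 4 with the smallest p in the joint test, and the highest per length in each role. Other genes were added for their group pattern after their values were seen. For pathway lists, the gene with the smallest p per list was named in CSDS against control and in SSDS-shACOT12 against SSDS-GFP. The same replicate number marked correlated deviations only between SSDS-GFP and SSDS-shACOT12 (0.196 to 0.419, over the bound of 0.1 in all 3 pairs), so the numbers were taken to pair these 2 groups, as the data and not the labels give it. This pairing is an assumption, as Control 2 with SSDS-GFP 3, of unlike number, had r of 0.279. Log2 fold changes, errors and adjusted p printed for single genes in SSDS-shACOT12 against SSDS-GFP come from fits without pairing. Exons of 7 of the 32 genes share bases with another gene in GENCODE M21. Alternatives were DESeq2 1.42.0, limma 3.58.1 on log2 FPKM and on weighted counts, other filters and scalings, a replicate block and leaving out libraries. 2 alternatives were chosen after seeing the data: leaving out the 3 libraries that stood apart, and correcting each library for gene length by a lowess of span 0.3.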

Additional observations from a re-analysis of the deposited data

How the results depend on the processing

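No called value reversed its direction under the alternatives. The number of vascular genes called in CSDS against control was 0 under every alternative. In SSDS-shACOT12 against SSDS-GFP it was 0 except without SSDS-shACOT12 2, where it was 2 (Cldn5 and Tjp1), so leaving out 1 library gave 0 to 2. In SSDS-GFP against control, where 1 was called, DESeq2 called 4, no filter on low counts 4, limma-voom with library weights 7 and the fit without the libraries that stood apart 3. The replicate block gave 0 over 12 and over 6 libraries, limma-trend on FPKM 0 for both pseudocounts (0.1 and 1), removing the length trend 0, and leaving out 1 library 0 to 1. With only the 6 libraries compared, 1 was again called, but it was Vwf (edgeR adjusted p = 0.0437) and not Adgrf5 (0.0571).

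In SSDS-shACOT12 against control, where 1 was called, DESeq2 called 7, no filter on counts 7, the stricter filter (50 counts in 3 libraries) 4, limma-voom with weights 8 and the fit without the libraries that stood apart 2. Only the 6 libraries compared gave 0, the replicate block 0 in both fits, limma-trend with 0.1 added 0 and removing the length trend 0. Leaving out 1 library gave 0 to 10, with 10 without SSDS-shACOT12 2. In the joint test, where 1 was called, DESeq2 and no filter each gave 7, limma-voom with weights 15, the fit without the libraries that stood apart 4, and the replicate block, both limma-trend fits and removing the length trend 0. Leaving out 1 library gave 0 to 9. The cause of these shifts was not tested. Adgrf5 itself ran from -0.84 to -0.60 in SSDS-GFP and from -0.89 to -0.65 in SSDS-shACOT12 against control over 25 settings, losing its call in 15 and 12 of them. With the replicate number as a block in the 6 libraries compared, it was at -0.76 and -0.83 (edgeR adjusted p = 0.329 and 0.26).

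Median log2 fold changes moved beyond the spread in 3 cases. The endothelial median in CSDS ran from -0.036 to 0.12 with 1 library left out, the mural median in SSDS-shACOT12 against SSDS-GFP from -0.033 to 0.36 (0.36 without SSDS-GFP 3), and the endothelial median there was 0.25 with library weights.

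Over all genes, the calls in CSDS against control, SSDS-GFP against control, SSDS-shACOT12 against SSDS-GFP and SSDS-shACOT12 against control were 0, 16, 0 and 14. They were 5, 523, 0 and 1536 with DESeq2, 132, 608, 108 and 1741 with no filter, 34, 2239, 0 and 4172 with library weights, and 30, 216, 20 and 735 without the libraries that stood apart. The filter of 50 counts gave 350 and removing the length trend 7 in SSDS-shACOT12 against control. With 1 library left out the ranges were 0 to 2, 4 to 111, 0 to 985 and 1 to 4232.

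At the depth of 14656714 to 17694570 counts, Tagln was too low to test, and Anpep, at 1.23 to 3.51 CPM, is the least measured of the genes tested. Exons of Tagln share 1241 bases with Gm48529 and 108 with Pcsk7, on the opposite strand. The part of depth or of this overlap in its low counts was not tested.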
